A study of Oryza sativa with 18 samples.

Results

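Gene expression before any insect attack was compared between a pair of rice lines, NIL-BPH9 at 0 h (3 arrays), labelled resistant, and 9311 at 0 h (3 arrays), labelled susceptible, which together are 6 of the 18 arrays of the series. The arrays were chosen by line and time in the sample titles, and the control probe sets of the array were left out. Each array holds RNA of leaf sheath from 1 biological replicate at the four-leaf stage, and both lines were also sampled 3 h and 6 h after brown planthoppers were put on the plants, 3 arrays per line and time. The plants were 3 weeks old and grown in a growth chamber. What the lines share besides their growth conditions is not stated in the labels, which give neither the donor of BPH9 nor the recurrent parent of the near-isogenic line.

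The brown planthopper sucks phloem sap from the leaf sheath. BPH9 is a rice resistance gene on the long arm of chromosome 12 whose protein belongs to the nucleotide-binding leucine-rich repeat family of immune receptors. A near-isogenic line is made by repeated backcrossing, and it carries a donor segment around the selected gene in the background of the recurrent parent, with other donor segments where backcrossing left them. BPH9 itself was not analysed here.

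Values are log2 signals of an Affymetrix rice array, on which a probe set is a group of short probes for 1 transcript. A probe set was tested when its signal was at or above the array median on at least 3 of the 18 arrays, which left 33094 of 57194 rice probe sets and 16053 genes, each represented by its brightest tested probe set. A difference was called when its limma p, adjusted by Benjamini-Hochberg over all tested probe sets, was under 0.05. Every difference is NIL-BPH9 minus 9311 on the log2 scale, given with its standard error (SE), and a positive one means a higher signal in NIL-BPH9. The probes were designed on reference transcripts, so a base difference between the lines under a probe and a difference in transcript amount cannot be told apart from 1 probe set. Levels of different probe sets are not compared.

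Across probe sets, arrays of the same line at 0 h correlated at 0.956 to 0.967, and arrays of different lines at 0.941 to 0.955. Along the first principal component of the 6 arrays (31.9% of the variance) the lines lay apart, with NIL-BPH9 at 47.3 to 55.4 and 9311 at -33.2, -37.7 and -81.6. The lowest of these was replicate 3 of 9311, which stood apart from the other replicates of its line, so the counts of the main lists are also given without it. The 3' to 5' signal ratio of control transcripts, a sign of RNA integrity, averaged 1.69 ± 0.08 in NIL-BPH9 and 1.61 ± 0.04 in 9311 on the log2 scale (SD, n = 3 each, mean of 5 pairs), with an exact two-sided permutation p of 0.2, and 3 arrays against 3 cannot go below 0.1. The 2 actin pairs, the cyclophilin pair and the GAPDH pair each separated the lines completely (exact permutation p = 0.1 each), with actin and GAPDH higher and cyclophilin lower in NIL-BPH9. The part of RNA integrity in the differences below was not tested. Genes typical of green leaf summed to 79924 to 83801 in NIL-BPH9 and 73235 to 89843 in 9311 on the linear scale, with 0 of 4 called. The fuller list of light harvesting, photosystem and Rubisco genes had 3 of 12 higher and 0 lower, and 7 higher without replicate 3 of 9311. Phloem genes summed to 59951 to 66604 in NIL-BPH9 and 59988 to 69842 in 9311, with 1 of 10 called. Of 4 root genes only 2 reached the array median on enough arrays to be tested, and neither was called. Of 7 seed storage genes 4 were tested and 2 were higher, and the summed signal was 3270 to 3772 in NIL-BPH9 and 2875 to 3109 in 9311, without overlap. The part of these tissues in the results was not tested.

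Before infestation, 3230 of 16053 genes (20.1%) differed between the lines: 1463 (9.11%) were higher and 1767 (11%) lower in NIL-BPH9. Most differences were small. The median fold was 1.30 among higher genes and 1.31 among lower genes, 2431 of the called genes differed by less than 1.5-fold, and 267 genes (1.66%) reached 2-fold, 131 of them higher and 136 lower. At the far end, 8 genes were at least 16-fold higher and 4 at least 16-fold lower. In probe sets, 4769 of 33094 (14.4%) were called, 2290 higher (6.92%) and 2479 lower (7.49%). Without replicate 3 of 9311, 4324 were called, and without replicate 3 of NIL-BPH9, 3727. The share of higher calls was 48.0% as deposited and 33.8% after each array was centred on its median, a change that moved the median difference from 0.02 to -0.02. A fit to the 6 arrays of 0 h alone, which estimates the spread from fewer arrays, called 1165 genes.

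The genes were grouped by their roles in lists, which were chosen with earlier results of these data known. Lists for cell division, growth and wall extension had more members lower than higher before infestation, and those for metal chelation, nutrient uptake, jasmonate repressors and proteinase inhibitors had more higher than lower. Over all genes tested, 9.11% were higher and 11% lower, with a median difference of 0.02. Without replicate 3 of 9311, the mitotic list had 14 lower and 0 higher, the histones 4 and 0, the growth-regulating factors 7 and 0, and the expansins 10 and 1. In the same setting 5 nicotianamine synthesis genes, 5 JAZ repressors, 5 proteinase inhibitors, 3 chitinases and related genes, and 6 abscisic acid genes were higher, with 0 lower in each of these lists.

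**Figure D1:**
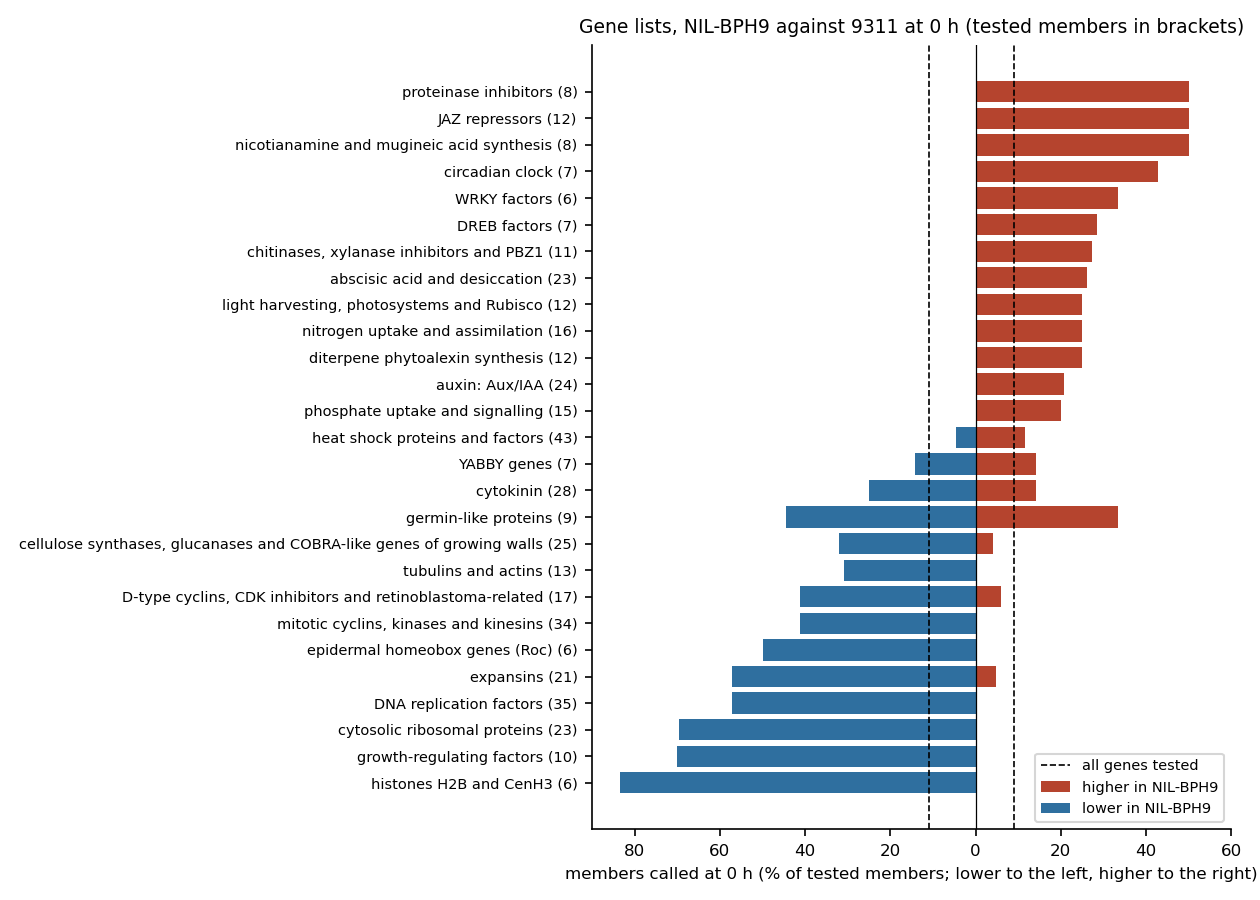
Share of tested members called at 0 h for 27 of the 55 gene lists, with tested members in brackets. Members lower in NIL-BPH9 are blue bars to the left of 0, and higher ones are red bars to the right. Dashed lines mark 11% lower and 9.11% higher over all 16053 genes. Histones and growth-regulating factors reach furthest to the lower side, and proteinase inhibitors, JAZ repressors and nicotianamine synthesis furthest to the higher side.

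DNA replication genes were lower in uninfested NIL-BPH9. Of 35 tested replication factors (36 on the array), 20 were called lower and 0 higher, with a median difference of -0.56, and 32 of the 35 had a negative sign. The mini-chromosome maintenance proteins form the helicase that opens DNA at replication origins. OsMCM2 measured 8.91, 8.85 and 8.90 on the NIL-BPH9 arrays, against 10.20, 10.16 and 9.68 on the 9311 arrays. The lines did not overlap, and the difference of -1.13 ± 0.15 (SE) is 2.19-fold (limma adjusted p = 2.55e-05). OsMCM4 measured 8.92, 8.48 and 9.11 in NIL-BPH9 and 10.05, 10.02 and 9.82 in 9311, a difference of -1.13 ± 0.13 (limma adjusted p = 5.37e-06). OsMCM5 differed by the same amount, -1.13 ± 0.13. ORC1, the large subunit of the complex that marks origins, measured 7.44, 7.36 and 7.20 in NIL-BPH9 and 8.98, 8.68 and 8.06 in 9311. Its difference of -1.24 ± 0.21 (limma adjusted p = 0.000361) rests on 9311 arrays that spread more widely than those of NIL-BPH9. Without replicate 3 of 9311, 19 replication factors were called lower, and without replicate 3 of NIL-BPH9, 17.

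Genes of mitosis and chromatin assembly went the same way. Among 34 mitotic cyclins, cyclin-dependent kinases and kinesins, 14 were lower and 0 higher, with a median of -0.31. The sign was negative in 24 and positive in 10, and the fit to the 6 arrays of 0 h alone called 9 lower. CYCB1-1, a B-type cyclin that acts at entry into mitosis, measured 10.35, 10.50 and 10.37 in NIL-BPH9, against 11.38, 11.41 and 11.48 in 9311. The replicates of each line lay close together, and the difference was -1.02 ± 0.06 (limma adjusted p = 4.4e-10). CYCB2-1, another B-type cyclin, differed by -1.01 ± 0.08, and the kinesin KIN10A by -1.06 ± 0.09. Of 6 genes for histone H2B and CenH3, the histone variant of centromeres, 5 were lower and 0 higher. H2B.10 measured 11.43, 11.48 and 11.43 in NIL-BPH9 and 12.29, 12.41 and 12.84 in 9311 (difference -1.07 ± 0.10), and CenH3 differed by -0.98 ± 0.10. H2B genes resemble each other closely, so a probe set may also read related copies. CMT3, a DNA methyltransferase that maintains methylation outside CG sites, measured 8.34, 7.98 and 8.55 in NIL-BPH9 and 9.52, 9.70 and 9.70 in 9311, a difference of -1.35 ± 0.16 (limma adjusted p = 7.45e-06). It was 1 of only 3 lower genes among 28 DNA methylation and small RNA genes. The list of D-type cyclins, CDK inhibitors and the retinoblastoma-related gene, which act earlier in the cycle, had 7 of 17 lower and 1 higher, but 3 lower without replicate 3 of NIL-BPH9 and 1 in the fit to the 6 arrays alone.

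The growth-regulating factors are transcription factors that promote cell proliferation in young leaves, and their median difference of -1.01 was the most negative of the 55 lists. Of 10 tested genes, 7 were lower and 0 higher, and all 10 had a negative sign. OsGRF5 measured 7.20, 6.95 and 7.15 in NIL-BPH9, against 8.68, 8.48 and 8.77 in 9311. With no overlap, its difference of -1.54 ± 0.20 is 2.91-fold (limma adjusted p = 2.73e-05). OsGRF6 measured 9.11, 9.0 and 8.98 in NIL-BPH9 and 10.16, 10.16 and 10.24 in 9311, a difference of -1.16 ± 0.09. OsGRF1 differed by -1.26 ± 0.14 and OsGRF7 by -1.05 ± 0.10. The 3 members that were not called were OsGRF12 at -1.05 (limma adjusted p = 0.0502), OsGRF8 at -0.20 and OsGRF11 at -0.03. Fewer calls were made among other regulators of the shoot apex. Of 7 YABBY genes, transcription factors of leaf development, 1 was lower (YAB5, -1.28 ± 0.22) and 1 higher, while 6 had a negative sign, with a median of -0.50. Without overlap of the lines, 4 were lower and 1 higher, and 32.5% of all genes tested did not overlap in either direction. Of 16 KNOX, WOX and other apex regulators 0 were lower and 2 higher, and OSH1, a marker of the meristem itself, differed by 0.01 ± 0.85. Of 6 tested Roc genes, homeobox genes of a family expressed in the epidermis, 3 were lower and 0 higher, and 5 had a negative sign. Roc3 measured 6.57, 5.82 and 7.04 in NIL-BPH9 and 8.06, 7.71 and 7.98 in 9311 (difference -1.44 ± 0.24).

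Of the 19 genes taken as markers of shoot meristem and leaf primordium, 8 were lower and 1 higher at 0 h, and their summed linear signal was 17301 to 17841 in NIL-BPH9 and 20350 to 21068 in 9311. The markers were drawn from the growth-regulating factors, YABBY genes and KNOX genes, which the lists above already count. Their counts therefore add no separate result. In leaf sheath RNA, fewer dividing cells and less RNA of these genes in each cell cannot be told apart, and the part of young tissue in the samples was not tested.

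Wall extension genes belong to the same side. Expansins loosen the cell wall during growth, and 12 of 21 tested (29 on the array) were lower and 1 higher in NIL-BPH9, with a median of -0.36. EXPA29 measured 6.73, 6.62 and 6.20 in NIL-BPH9, against 7.85, 8.02 and 8.28 in 9311. The difference of -1.54 ± 0.25 (limma adjusted p = 0.000326) is 2.90-fold, and the lines did not overlap. EXPA2 differed by -0.97 ± 0.07 and the beta-expansin EXPB11 by -0.91 ± 0.08. Among 25 cellulose synthases, glucanases and COBRA-like genes, 8 were lower and 1 higher, but 6 lower and 3 higher without replicate 3 of 9311, and 4 lower and 0 higher in the fit to the 6 arrays of 0 h alone. They include BC1L2, a COBRA-like gene (-1.30 ± 0.15), and GLU13, an endoglucanase (-1.01 ± 0.11). Of 6 genes of the secondary wall 1 was lower, and of 26 lignin and phenylpropanoid genes 2 were higher and 1 lower. The beta-tubulin TUB2 measured 12.76, 12.78 and 12.67 in NIL-BPH9 and 13.41, 13.41 and 13.54 in 9311 (difference -0.72 ± 0.05), 1 of 4 lower genes among 13 tubulins and actins. That list went to 2 lower and 2 higher without replicate 3 of 9311.

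Ribosomal protein genes gave a small shift in many members. Of 23 tested cytosolic ribosomal protein genes, 16 were lower and 0 higher, with a median of -0.27. RPS27AA, which encodes ubiquitin fused to a ribosomal protein, measured 13.57, 13.85 and 13.81 in NIL-BPH9 and 14.14, 14.13 and 14.30 in 9311 (difference -0.45 ± 0.07, limma adjusted p = 0.000219). The mean of the list was 13.33 ± 0.05 in NIL-BPH9 and 13.57 ± 0.18 in 9311 (SD, n = 3 each). The single 9311 arrays stood at 13.49, 13.44 and 13.78, and the highest was replicate 3. Without that array 14 were lower and 1 higher and the median was -0.18. Without replicate 3 of NIL-BPH9, 11 were lower and 0 higher, and the fit to the 6 arrays of 0 h alone called 3 lower.

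The replication factors and the growth-regulating factors differed at 0 h and mostly not after infestation. Other growth lists, those of mitosis, expansins and growing walls, had near equal higher and lower counts at 3 h. At 6 h these lists had more members lower than higher. The mean log2 signal of the replication factors was 8.96 ± 0.02, 8.74 ± 0.03 and 9.05 ± 0.02 in NIL-BPH9 at 0, 3 and 6 h, and 9.5 ± 0.10, 8.75 ± 0.02 and 9.13 ± 0.06 in 9311 (SD, n = 3 each). The growth-regulating factors averaged 8.30 ± 0.02, 8.04 ± 0.03 and 8.78 ± 0.03 in NIL-BPH9 and 9.14 ± 0.05, 8.06 ± 0.03 and 8.81 ± 0.06 in 9311. In both lists the 9311 arrays of 0 h were the highest of all 6 groups, and the group means of the lines lay close together at 3 h and at 6 h. At 3 h, when 10% of all genes were called (5.71% higher, 4.31% lower), 1 replication factor was higher and 0 were lower. At 6 h, when 15.7% of all genes were called (7.89% higher, 7.84% lower), 1 was higher and 1 lower. Of the growth-regulating factors, 0 were called at either time. Of the expansins, 2 were higher and 2 lower at 3 h, and 3 were higher and 6 lower at 6 h. The mitotic list had 0 higher and 1 lower at 3 h (median -0.03), and 1 higher and 4 lower at 6 h (median -0.28). On the single arrays of 0 h its mean was 8.73, 8.72 and 8.90 in NIL-BPH9 and 9.34, 9.20 and 8.91 in 9311. The replicates 3 of the lines were thus nearly level at 0 h. At 6 h its mean was 8.57 ± 0.01 in NIL-BPH9 and 8.79 ± 0.05 in 9311, and the lines did not overlap. The cellulose synthase, glucanase and COBRA-like list had 1 higher and 0 lower at 3 h, and 2 higher and 5 lower at 6 h.

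The change of the line difference was tested in the same fit, as the difference at 3 h or 6 h minus that at 0 h. It was called for 2464 genes at 3 h (15.3%) and 1612 at 6 h (10%), in 13 replication factors at 3 h and 13 at 6 h, and in 6 and 7 growth-regulating factors. This contrast uses the same 0 h arrays as the 0 h comparison, so the 2 counts are not independent. For OsGRF5 the line difference was 0.16 at 3 h and 0.07 at 6 h, for OsMCM2 0.05 and -0.34, and for CYCB1-1 -0.06 and -0.21, the last called (limma adjusted p = 0.02). EXPA29 was called higher in NIL-BPH9 at 3 h, by 1.22. Plants kept without insects until 3 h or 6 h were not analysed here, and the effects of infestation and of time of day cannot be told apart.

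**Figure D2:**
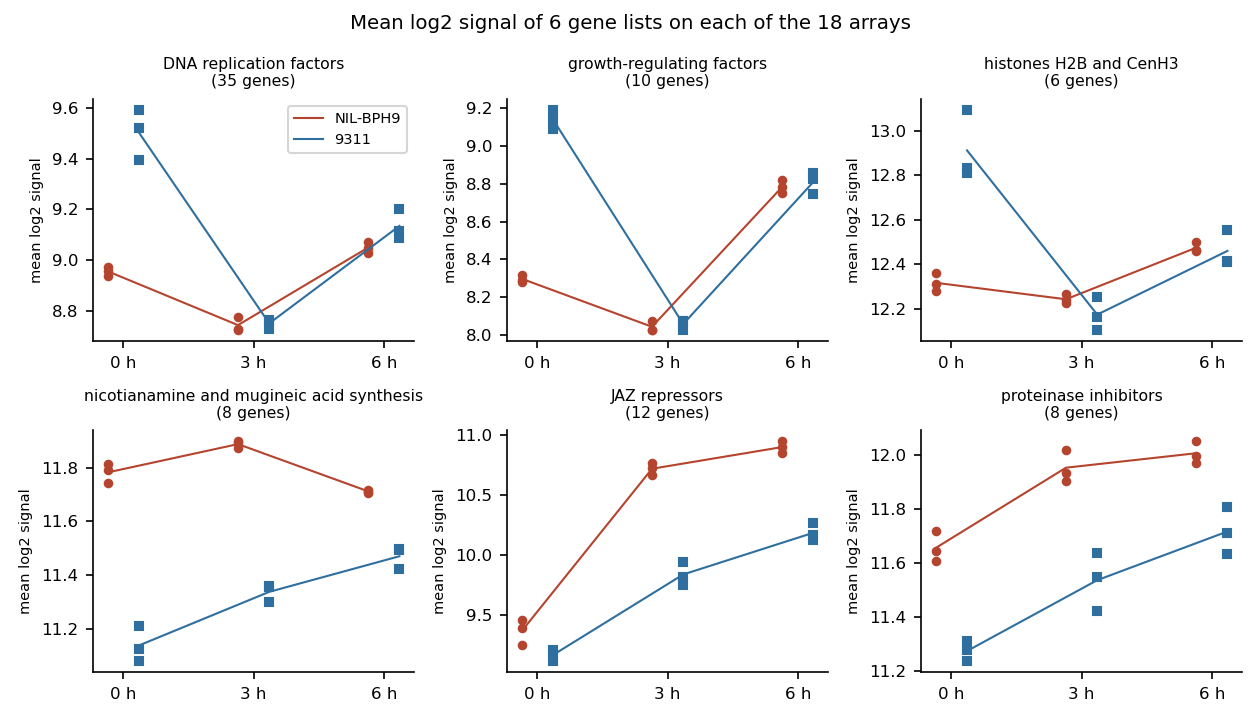
Mean log2 signal of 6 gene lists on each of the 18 arrays, with NIL-BPH9 as red circles left of 9311 as blue squares at 0, 3 and 6 h, and lines through the group means. Each panel has its own y axis, which does not start at 0. In the upper panels the 3 arrays of 9311 at 0 h stand alone, with replication factors at 9.40 to 9.59 and all other groups at or below 9.20. In the lower panels NIL-BPH9 is above 9311 at each time.

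Some genes for making metal chelators were higher in NIL-BPH9. Nicotianamine synthases make nicotianamine, which binds iron and zinc inside the plant, and nicotianamine aminotransferase takes it on towards mugineic acids, the iron carriers of grasses. NAS1 measured 11.47, 11.56 and 11.43 in NIL-BPH9, against 8.92, 8.95 and 9.02 in 9311. The lines were far apart and their replicates tight, with a difference of 2.52 ± 0.07, 5.75-fold (limma adjusted p = 8.54e-15). NAS2 measured 11.57, 11.60 and 11.47 in NIL-BPH9 and 10.23, 10.31 and 10.40 in 9311, a difference of 1.23 ± 0.10, 2.35-fold. NAS1 and NAS2 are close relatives, and a probe set of 1 may read the other. NAAT1 measured 12.16, 12.28 and 12.33 in NIL-BPH9 and 10.75, 10.82 and 10.82 in 9311, a difference of 1.46 ± 0.06, 2.75-fold (limma adjusted p = 6.06e-12). In all, 4 of 8 tested genes of this pathway were higher and 0 lower, with a median of 0.16. The fourth call was SAMS2, which makes S-adenosylmethionine, from which nicotianamine is built. Its difference was 0.19 ± 0.06 (limma adjusted p = 0.0426) with overlapping lines, its other, dim probe set gave -0.85, and the mean of both was called lower (-0.33). The list then had 3 higher and 1 lower, and it had 3 higher and 0 lower after centring, with no filter, with no intensity trend, with the replicate block and in the fit to the 6 arrays of 0 h alone. The third synthase, NAS3, was at -0.19 and not called (limma adjusted p = 0.129).

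NAS1, NAS2 and NAAT1 stayed higher under infestation, while the gap narrowed. For NAS1 the line difference was 1.56 at 3 h and 0.76 at 6 h, with 9311 at 9.83 and 10.41 and NIL-BPH9 at 11.39 and 11.17. NAS2 differed by 1.18 at 3 h and 0.51 at 6 h, and NAAT1 by 0.84 and 0.82, all called. Of 38 metal transporters and iron regulators, 4 were higher (10.5%) and 2 lower (5.26%) at 0 h, with a median of 0.05, against 9.11% and 11% of all genes. The zinc transporter OsZIP8 measured 9.0, 8.89 and 8.87 in NIL-BPH9 and 8.15, 7.89 and 7.78 in 9311, a difference of 0.98 ± 0.10, with 0.67 and 1.03 at 3 h and 6 h, both called.

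Nutrient genes with a higher signal include GLN1-2, a cytosolic glutamine synthetase that assimilates ammonium. It measured 13.35, 13.42 and 13.28 in NIL-BPH9, against 12.07, 12.06 and 12.28 in 9311. The difference of 1.21 ± 0.06 (limma adjusted p = 1.05e-10) is 2.32-fold and was 0.88 at 3 h and 0.64 at 6 h. AMT3-2, an ammonium transporter, differed by 0.92 ± 0.17 at 0 h. Of 16 nitrogen genes 4 were higher and 0 lower. Of 15 phosphate genes 3 were higher and 0 lower: the phosphate sensors SPX1 (0.57 ± 0.06) and SPX2 (0.61 ± 0.12) and the phosphate transporter PHT1-8 (0.69 ± 0.09). Each of these 3 was called with the same sign at 3 h and 6 h, with differences of 0.35 to 1.44.

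**Figure D3:**
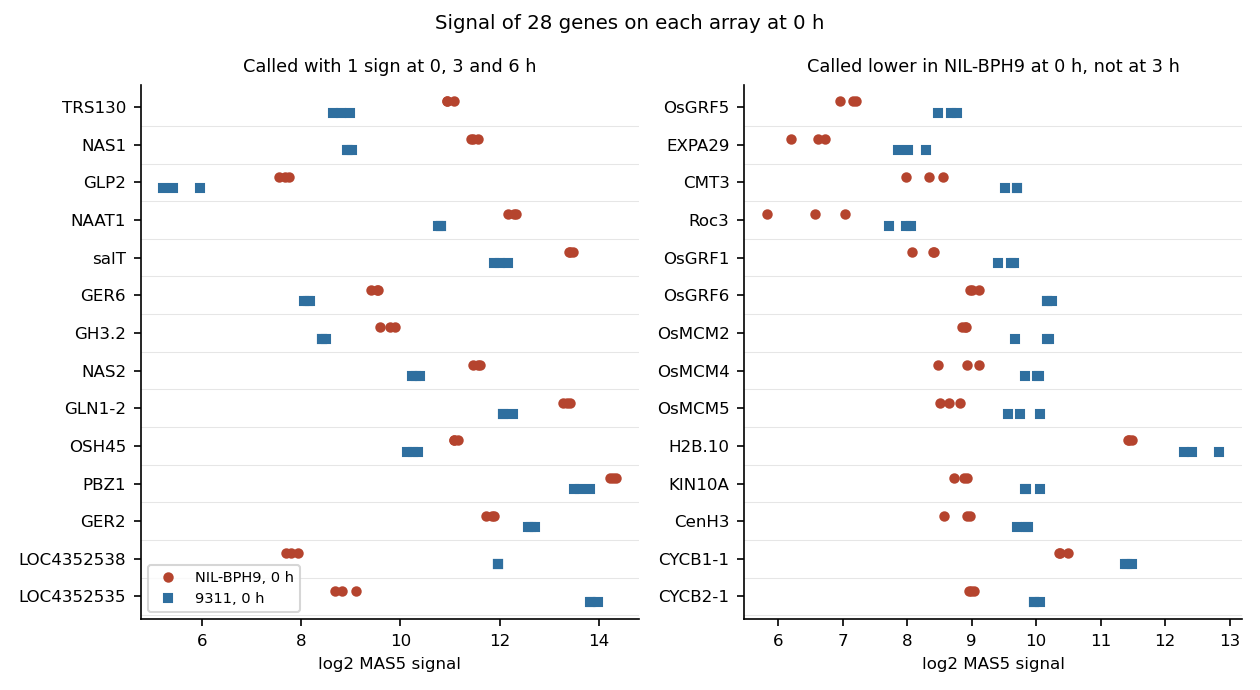
Log2 signal on each of the 6 arrays of 0 h, with NIL-BPH9 as red circles and 9311 as blue squares, for 14 genes called with the same sign at 0, 3 and 6 h on the left and 14 genes called lower at 0 h and not called lower at 3 h on the right. In each of the 28 genes the lines do not overlap, which is largely a result of picking them from called genes. Among all called genes the lines do not overlap in 1384 of 1463 higher and 1717 of 1767 lower ones. Among all genes tested the share is 32.5%. The widest gaps are those of LOC4352535 (difference -5.01) and LOC4352538 (-4.15).

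Called hormone genes were higher in the lists of JAZ repressors and of abscisic acid and desiccation, and went in both directions in the cytokinin list. The JAZ proteins repress jasmonate responses and are themselves induced by jasmonate, the hormone of wounding. Of 12 tested JAZ genes (13 on the array), 6 were higher and 0 lower at 0 h, with a median of 0.26. TIFY11B measured 10.67, 10.77 and 10.74 in NIL-BPH9 and 10.15, 10.03 and 9.96 in 9311, a difference of 0.68 ± 0.06 (limma adjusted p = 1.91e-07). TIFY11D differed by 0.51 ± 0.08 and TIFY11E by 0.54 ± 0.11. TIFY6B was called on 1 probe set (0.67 ± 0.20, limma adjusted p = 0.0287) and lost the call without replicate 1 or 3 of either line and after centring, and its other probe set gave 0.11. The fit to the 6 arrays of 0 h alone called 3 JAZ genes. Of 14 jasmonate synthesis genes and 5 perception genes, 0 were called at 0 h. Under infestation 7 JAZ genes were higher at 3 h (median 0.91) and 8 at 6 h (median 0.72), with 0 lower at either time, and the change of the line difference from 0 h was called for 7 JAZ genes at 3 h and 4 at 6 h. Of the jasmonate synthesis genes, 6 were higher at 3 h and 3 at 6 h (medians 0.40 and 0.19), and of the perception genes 0 at either time.

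Of 28 tested cytokinin genes, 7 were lower (25%) and 4 higher (14.3%) at 0 h, with a median of 0.06, and the fit to the 6 arrays of 0 h alone called 2 lower and 2 higher. Of the lower ones 5 are type-A response regulators, which damp the cytokinin signal. OsRR1, one of these, measured 8.65, 8.83 and 8.89 in NIL-BPH9 and 9.35, 9.42 and 9.15 in 9311, a difference of -0.52 ± 0.10 (limma adjusted p = 0.00117). Higher genes include LOGL3, of the family whose enzymes release active cytokinin. It differed by 0.55 ± 0.06 at 0 h and was called lower at 3 h (-0.50).

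GH3.2, an enzyme that links auxin to amino acids and so inactivates it, measured 9.79, 9.89 and 9.59 in NIL-BPH9, against 8.43, 8.42 and 8.51 in 9311. The difference was 1.30 ± 0.09 (limma adjusted p = 4.52e-09), 2.47-fold, and was called at 3 h (1.28) and 6 h (0.75). Its list of ARF, GH3 and PIN auxin genes went both ways, with 5 of 31 higher and 3 lower and a median of -0.02. Another GH3 gene was called lower (-0.87 ± 0.23). Of 24 Aux/IAA genes, a further auxin list, 5 were higher and 0 lower, but 1 was higher in the fit to the 6 arrays of 0 h alone. In the abscisic acid and desiccation list 6 of 23 were higher and 0 lower. The fit to the 6 arrays of 0 h alone called 3 higher, and centring left 4, with 0 lower in both. The largest of the 6 was salT, a salt-induced lectin, at 13.48, 13.43 and 13.41 in NIL-BPH9 and 11.89, 12.01 and 12.17 in 9311. Its difference was 1.41 ± 0.07 on one probe set and 1.81 on another, and 2.57 and 1.30 at 3 h and 6 h. SAPK3, a kinase of the SnRK2 family, differed by 0.42 ± 0.06, and PP2C68, a protein phosphatase of the kind that restrains abscisic acid signalling, by 1.0 ± 0.10. OSH45, a homeobox gene of the KNOX family, differed by 0.86 ± 0.07 and kept its call at both later times. CIPK8, a calcium-regulated kinase, differed by 0.99 ± 0.10 at 0 h and by 0.22 and 0.25 at 3 h and 6 h, neither called. Its list of calmodulin-like and calcium kinase genes was mixed at 0 h. Of 67 tested, 10 were higher (14.9%) and 7 lower (10.4%), against 9.11% and 11% of all genes. Another CIPK gene was called lower (-0.58 ± 0.07).

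Proteins of direct defence were higher in part of their lists, and the list of early immunity had more members lower than higher. Of 8 tested proteinase inhibitors (11 on the array), 4 were higher and 0 lower, with a median of 0.47. The cystatins OC-I and OC-II, inhibitors of cysteine proteinases, differed by 0.55 ± 0.04 and 0.39 ± 0.07. OC-I measured 12.97, 13.05 and 12.98 in NIL-BPH9 and 12.42, 12.44 and 12.50 in 9311, and was called lower in NIL-BPH9 at 3 h (-0.23). The inhibitor genes pinA (0.78 ± 0.07) and OSE727A (0.80 ± 0.07) lie close together on chromosome 1. They were higher again at 3 h, by 1.0 and 1.16, and at 6 h they differed by 0.25, called, and by 0.12, not called. Cht2, a chitinase, measured 12.20, 12.08 and 12.06 in NIL-BPH9 and 11.08, 11.33 and 11.49 in 9311 (difference 0.81 ± 0.09). It is 1 of 3 higher genes among 11 chitinases, xylanase inhibitors and PBZ1, of which 0 were lower. With values under 4 set to 4, in the fit to the 6 arrays of 0 h alone and without replicate 2 of 9311, 1 member was lower. In the list of pattern recognition and early immunity, 3 of 12 were lower (25%) and 1 higher. The lower ones were CEBIP, which binds chitin (-0.41 ± 0.12), LYP4, a related receptor-like protein (-0.34 ± 0.10), and OsBAK1, a co-receptor kinase (-0.27 ± 0.07). Each of the 3 lost its call in the fit to the 6 arrays of 0 h alone and without at least 1 of the arrays.

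WRKY62 and WRKY76, transcription factors known in rice as repressors of defence genes, were the 2 called members among 6 WRKY genes. WRKY76 measured 8.61, 8.16 and 8.42 in NIL-BPH9, against 7.44, 7.56 and 7.62 in 9311. Its difference was 0.86 ± 0.11 (limma adjusted p = 1.48e-05), and 2.35 at 3 h and 1.87 at 6 h. WRKY62 differed by 0.83 ± 0.22 and lost the call without replicate 3 of NIL-BPH9. Of 12 diterpene phytoalexin genes, 3 were higher and 0 lower at 0 h, with a median of 0.45. They include the cytochromes P450 CYP71Z7 (0.82 ± 0.21) and CYP99A2 (0.67 ± 0.20). CYP71Z7 lost the call without replicate 3 of NIL-BPH9, and CYP99A2 lost it without replicate 2 or 3 of NIL-BPH9 or replicate 1 of 9311. At 3 h their differences were 2.64 and 1.82, with 9311 at 6.84 and 6.94.

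Germin-like proteins of a gene cluster on chromosome 8 differed in both directions. GLP2 measured 7.75, 7.67 and 7.56 in NIL-BPH9, against 5.23, 5.96 and 5.41 in 9311. The difference was 2.13 ± 0.25, 4.37-fold, on 1 probe set and 1.13 (limma adjusted p = 0.0402) on the other. GER6 measured 9.54, 9.53 and 9.42 in NIL-BPH9 and 8.05, 8.18 and 8.13 in 9311, a difference of 1.37 ± 0.12. GER2 measured 11.73, 11.90 and 11.85 in NIL-BPH9 and 12.58, 12.72 and 12.63 in 9311, a difference of -0.82 ± 0.07 that was -0.90 at 3 h and -1.88 at 6 h. GER1 was at -0.42 ± 0.10 and lost its call without replicate 2 of NIL-BPH9. These genes are near-identical copies, and a probe set may read several of them. GER7, on chromosome 3, was at 0.35 ± 0.10 and lost its call after quantile normalization, after centring, and without replicate 1 or 2 of NIL-BPH9 or replicate 2 of 9311. In all 3 of 9 tested germin-like genes were higher and 4 lower.

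A few genes outside these groups were named for the size of their difference. OsBURP16, which encodes a BURP-domain protein, measured 11.35, 11.38 and 11.14 in NIL-BPH9 and 9.78, 9.93 and 10.32 in 9311. Its difference was 1.28 ± 0.10 at 0 h, -0.44 at 3 h and 1.11 at 6 h, each called, so its direction at 3 h was the opposite. GST-I, a glutathione S-transferase, differed by -1.21 ± 0.10 at 0 h and stayed lower at 3 h (-0.76) and 6 h (-0.68). GRXC3, a glutaredoxin, was lower at 0 h by 1.37 on the log2 scale (-1.37 ± 0.19), with 0.17 and -0.16 later, neither called.

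Some called genes lay on opposite sides of the array median in the lines, which sets no least size for the difference. In 23 genes the signal was at or above the array median on 3 of 3 NIL-BPH9 arrays and 0 of 3 9311 arrays, and 17 of them were higher at 3 h and 6 h too. The opposite was found in 10 genes, of which 1 was lower at both later times. Such a gene can have entered the test through the 3 arrays of its higher line at 0 h alone. LOC4350429 on chromosome 11 measured 1.99, 0.62 and 0.96 in NIL-BPH9, against 9.41, 9.29 and 9.28 in 9311. The NIL-BPH9 values lie under every array's median (5.34 to 5.52), where the log2 scale has little meaning, and with all values under 4 set to 4 the difference of -8.14 ± 0.67 becomes -5.33. It was -7.31 at 3 h and -7.77 at 6 h. LOC4325855 on chromosome 1 measured 8.33, 8.58 and 8.68 in NIL-BPH9 and 0.64, 1.47 and 0.09 in 9311. Its difference of 7.80 ± 0.88 is 4.53 with that floor, and a probe set that also matches other transcripts gave 7.15. LOC4326426, also on chromosome 1, measured 9.59, 9.67 and 9.74 in NIL-BPH9 and 4.76, 3.68 and 0.29 in 9311, a difference of 6.76 ± 0.92, or 5.41 with the floor. LOC4326809 on the same chromosome differed by 4.71 ± 1.03, or 3.43 with the floor. Each of these 4 was called with the same sign at 0, 3 and 6 h. LOC4329812 on chromosome 2 was called at 0 h only, with NIL-BPH9 at 5.22, 4.17 and 1.44, under the array median, and 9311 at 8.27, 7.79 and 8.27. Its difference was -4.50 ± 0.97, or -3.65 with the floor. At 3 h both lines averaged under the array median (1.78 in NIL-BPH9 and 1.62 in 9311), so that no line difference could be read there, and at 6 h it was -1.42 and not called.

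Several of the largest differences lay on chromosome 12. LOC4352535, with a signal well above the array median in both lines, measured 9.10, 8.67 and 8.82 in NIL-BPH9, against 13.83, 13.83 and 13.99 in 9311. The difference of -5.01 ± 0.12 is 32.3-fold (limma adjusted p = 1.91e-15) and was -5.37 at 3 h and -5.76 at 6 h. LOC4352538 on the same chromosome measured 7.69, 7.81 and 7.93 in NIL-BPH9 and 11.96, 11.96 and 11.97 in 9311, a difference of -4.15 ± 0.12. Its other, dim probe set gave -2.68 and was not called (limma adjusted p = 0.0529). LOC4352335 (5.77 ± 0.65, or 3.72 with the floor) and LOC4352431 (4.69 ± 0.55, or 3.11) were higher in NIL-BPH9, from 9311 values under the array median. TRS130, a subunit of a complex that tethers transport vesicles, measured 11.07, 10.94 and 10.93 in NIL-BPH9 and 8.98, 8.81 and 8.64 in 9311. Its difference was 2.17 ± 0.12, 4.50-fold (limma adjusted p = 4.72e-10), with 1.83 and 1.97 at 3 h and 6 h. PBZ1, a pathogenesis-related protein of the PR10 family, measured 14.34, 14.28 and 14.23 in NIL-BPH9 and 13.50, 13.63 and 13.81 in 9311, a difference of 0.64 ± 0.06 that was 0.72 and 0.79 later.

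Higher and lower genes had different courses. The 0 h, 3 h and 6 h comparisons share no array, so a call at a later time is a second measurement of the line difference, in infested plants. Of 1463 genes higher at 0 h, 327 (22.4%) were higher at 3 h, 524 (35.8%) at 6 h and 251 (17.2%) at both. Of 1767 genes lower at 0 h, 109 (6.17%) were lower at 3 h, 378 (21.4%) at 6 h and 76 (4.30%) at both. The median difference of the higher genes was 0.38 at 0 h, 0.02 at 3 h and 0.15 at 6 h, and that of the lower genes was -0.39, 0.02 and -0.10. The share called again was larger among larger differences. Among higher genes the share called at all 3 times was 13.1% under 2-fold (175 of 1332), 49.4% from 2- to 4-fold (42 of 85) and 68.4% from 4- to 16-fold (26 of 38), and it covered all 8 genes of at least 16-fold. Among lower genes it was 64 of 1631, 7 of 117, 2 of 15 and 3 of 4. The shares of the higher and the lower genes were not tested against each other.

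**Figure D4:**
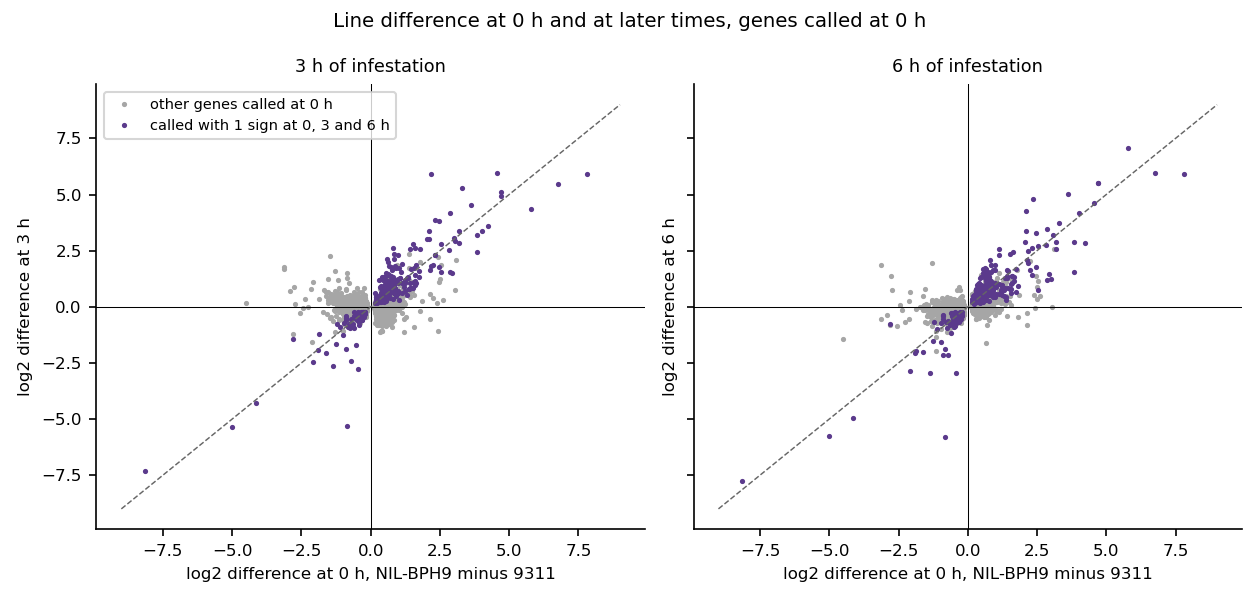
Log2 difference, NIL-BPH9 minus 9311, at 3 h (left) and 6 h (right) against that at 0 h, for the 3230 genes called at 0 h, with the 327 called with the same sign at all 3 times in purple and the rest in grey. The dashed line marks equal differences. All 8 higher and 3 of 4 lower genes of at least 16-fold are purple, against 175 of 1332 higher and 64 of 1631 lower genes under 2-fold.

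In the order of genes along the chromosomes, calls at all 3 times were uneven. They made up 327 of 16053 genes (2.04%). Chromosome 12 held 42 among 799 genes (5.26%), chromosome 8 held 47 among 1064 (4.42%), chromosome 11 held 24 among 700 (3.43%), and chromosome 2 had the lowest share (0.782%). The share of genes called at 0 h, whether or not called later, ran from 17.1% on chromosome 7 to 22.8% on chromosome 12. On chromosome 12 the 150 tested genes from LOC4352324 to LOC4352621, a stretch chosen after the values were seen, held 38 genes called at all 3 times (25.3%), 20 higher and 18 lower, and at 0 h 35 of its genes were higher and 33 lower. The other 649 genes of the chromosome held 4 (0.616%). TRS130, PBZ1, LOC4352335, LOC4352431, LOC4352535 and LOC4352538 lie in this stretch. The position of BPH9 relative to it was not tested.

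Windows of 20 neighbouring tested genes were counted along each chromosome, 15823 in all, of which 73.8% held no gene called at all 3 times. The fullest was on chromosome 12, from LOC4352499 to LOC4352535, with 10 such genes, 5 higher and 5 lower. Windows with 7 lay on chromosome 11 from LOC4350377 to LOC4350431, with LOC4350429 inside, on chromosome 12 from LOC4352413 to LOC9269513, on chromosome 8 from OsBURP12 to LOC4345471, where all 7 were higher, and on chromosome 1 from LOC4326490 to LOC4326015. The window of the germin-like cluster on chromosome 8, from LOC4344833 to LOC4344869, held 6, of which 5 were higher and 1 lower.

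**Figure D5:**
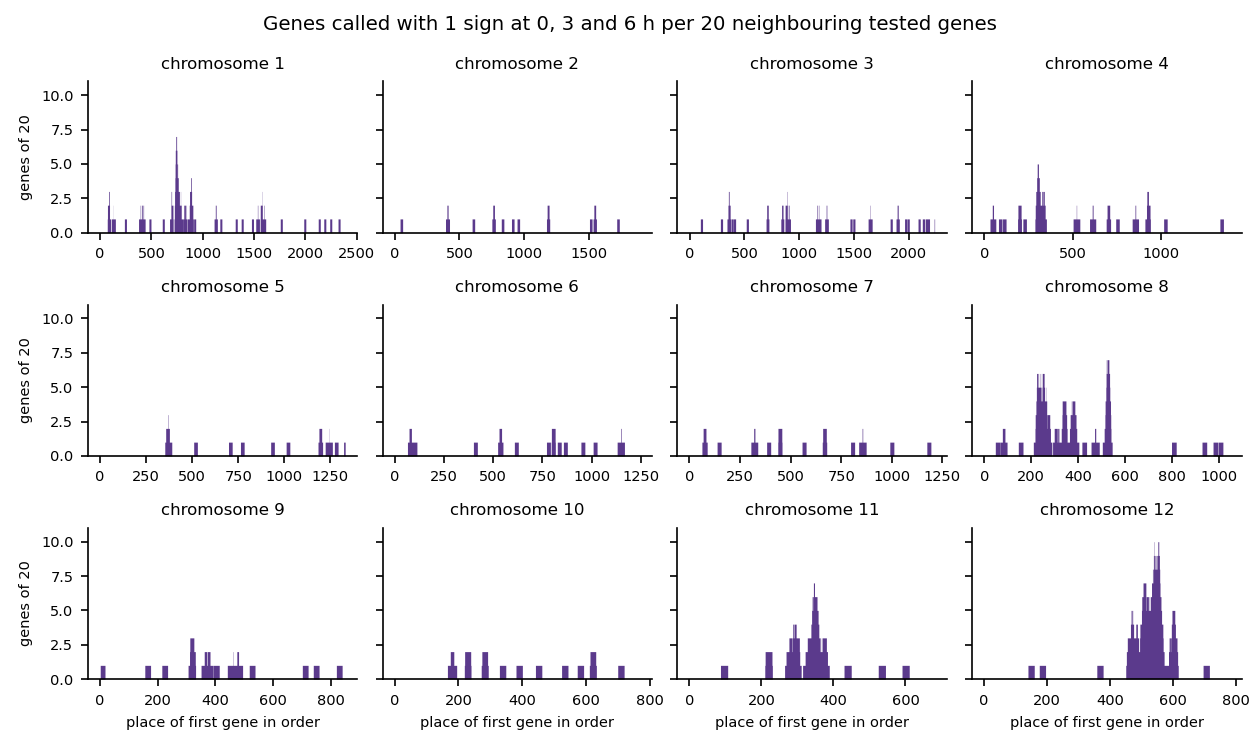
Number of genes called with the same sign at 0, 3 and 6 h in each window of 20 neighbouring tested genes, plotted by gene order along the 12 chromosomes. The highest peak, 10 of 20, is on chromosome 12, and peaks of 7 stand on chromosomes 1, 8, 11 and 12, while the median window has 0.

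A second probe set of the same gene gives a check on single probe sets. Among 2479 genes with several tested probe sets, 487 were called at 0 h on the brightest one. In 379 of these (77.8%) all other probe sets had the same sign, in 154 (31.6%) all were also called with that sign, and in 10 (2.05%) another was called with the opposite sign. Of the 46 such genes called at all 3 times, the other probe sets had the same sign in 35 and were called with the opposite sign in 2.

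Most rice probe sets have no single gene in the annotation used here, and some of the largest differences are among them. OsAffx.29191.1.S1_at measured 12.01, 12.09 and 12.001 in NIL-BPH9, against 2.83, 0.23 and 0.41 in 9311. OsAffx.5780.1.A1_at measured 7.39, 7.54 and 7.35 in NIL-BPH9 and was listed at 0 on all 3 arrays of 9311. In the other direction, Os.14771.1.S1_at measured 5.93, 5.11 and 5.65 in NIL-BPH9 and 11.10, 11.07 and 11.46 in 9311, a difference of -5.65 ± 0.24 (limma adjusted p = 7.3e-12). All 3 were called with the same sign at 3 h and 6 h.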

How the data were processed

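RNA of rice leaf sheath was hybridised to 1-colour Affymetrix rice arrays, per the labels. The deposited values are log2 signals from MAS5, per the submitters' processing notes. The MAS5 version and its settings were not given in the sources used here. Each deposited log2 array has a 2% trimmed mean of 500.076 to 500.088 on the linear scale, and 24806 values are 0. Detection calls were not used here. Of 57381 probe sets, 187 controls were left out, and 22436 of the rest have 1 gene, 95 several and 34663 none in the platform annotation. All 17905 genes matched the gene table (assembly GCF_034140825.1).

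The 6 group means were fitted to all 18 arrays with limma 3.58.1 in R 4.3.3 (intensity trend, Benjamini-Hochberg, threshold 0.05), with contrasts between lines at each time and between times. A _x_at probe set stood for a gene only where it had no other. Named genes are a selection from the 15 largest called differences in each direction among named genes that did not overlap and were above the array median in the higher line, the 4 largest in each direction of each list, and the 5 largest of all genes. A member that was not called may be named with its value. Members and lists were chosen with earlier results of these data known. The labels call the replicates biological without naming separate plants or pools, so p-values measure the spread between these samples, and 3 arrays a group limit the precision. Alternatives were another normalization, centring, filter, floor, spread model, probe set rule, replicate block and leaving out each array.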

Additional observations from a re-analysis of the deposited data

Results flagged for a closer look

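For 53 of the 76 genes named above, the line difference after infestation differed from that at 0 h in the limma fit (adjusted p under 0.05). Over all genes tested this change was called for 15.3% at 3 h and 10% at 6 h. The 76 genes were mostly picked for called differences at 0 h, which enter the change, so a high count follows in part from the picking. The values below are the line difference at 3 h or 6 h minus that at 0 h, in log2, for whichever time had the lower adjusted p, and they use the same 0 h arrays as the differences at 0 h. A positive value means a less negative or a more positive difference of NIL-BPH9 from 9311 than before infestation.

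Among genes that were lower in NIL-BPH9 at 0 h, the change at 3 h was positive for the replication, division and chromatin genes OsMCM2 (1.18), OsMCM4 (1.44), OsMCM5 (1.14), CYCB1-1 (0.96), CYCB2-1 (0.93), KIN10A (1.16), H2B.10 (1.42) and CMT3 (1.70), and at 6 h for CenH3 (0.88). It was positive at 3 h for the transcription factors OsGRF1 (1.18), OsGRF5 (1.70), OsGRF6 (1.38), OsGRF7 (1.23), YAB5 (1.98) and Roc3 (1.92). The growth and wall genes EXPA2 (1.08), EXPA29 (2.76), EXPB11 (1.04), BC1L2 (1.13), GLU13 (0.98) and TUB2 (0.94) went the same way at 3 h. So did GRXC3 (1.54), GER1 (0.55), OsRR1 (0.45) and LYP4 (0.51) at 3 h, and GST-I (0.53) and RPS27AA (0.60) at 6 h. For LOC4329812 the fitted change at 3 h was 4.66, but NIL-BPH9 at 0 h and both lines at 3 h averaged under the array median, so this value is not a measured change. The opposite was measured at 6 h for LOC4352535 (-0.75), LOC4352538 (-0.78) and GER2 (-1.06), whose difference from 9311 was then more negative than at 0 h.

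Among genes that were higher in NIL-BPH9 at 0 h, the difference was smaller, absent or turned at 3 h for NAAT1 (-0.62), CIPK8 (-0.78), LOGL3 (-1.04), OC-I (-0.77), Cht2 (-0.48) and OsBURP16 (-1.72), and at 6 h for NAS1 (-1.76), NAS2 (-0.72), GLN1-2 (-0.57), GH3.2 (-0.56), pinA (-0.53), OSE727A (-0.68) and GER6 (-0.92). It was larger at 3 h for salT (1.16), SPX2 (0.83), WRKY62 (1.29), WRKY76 (1.49), CYP71Z7 (1.82), CYP99A2 (1.14) and GER7 (0.52), and at 6 h for TIFY11B (0.46) and TIFY11E (1.14).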

How the results depend on the processing

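Quantile normalization, no filter, a stricter filter, no intensity trend, a floor of 4, and the mean of probe sets kept the counts of called probe sets, genes and list members within 1.5 times of those above. Centring each array on its median called 3014 probe sets (1019 higher), 264 higher probe sets at all 3 times, 2012 with a changed line difference, and 1988 genes (578 higher). The fit to the 6 arrays of 0 h alone called 1734 probe sets (694 higher, 1040 lower), 1165 genes (422 higher, 743 lower), 126 list members against 269, and 105 of the 204 genes chosen by the naming rule, and it has fewer degrees of freedom. Of the 76 genes in the text, CEBIP, LYP4, OsBAK1, SAMS2, GER1, GER7, TIFY11E, TIFY6B, CYP99A2 and WRKY62 lost their call there. With the mean of their probe sets, SSII-2 (0.0813), OsPP2C73 (0.0457), SAMS2 (-0.33, limma adjusted p = 0.0211), GLUA-2 (-0.0332) and PSAG (-0.123) had the opposite sign. For these reversals the cause was not tested. Leaving out 1 array of 0 h gave 3727 to 5561 called probe sets, 526 to 681 of at least 2-fold, 459 to 623 at all 3 times, 3515 to 6383 with a changed line difference, 2544 to 3682 genes, 219 to 284 list members and 159 to 182 named genes. The difference of the mean 3' to 5' ratio was 0.05 to 0.12. With the replicate number as a block, 4400 probe sets and 2980 genes were called. The numbers do not pair the arrays: the deviations of same-numbered arrays correlated at -0.07, -0.01 and -0.11. Signals under the array median limit what can be said of absent transcripts.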
